A study of Mus musculus with 4 samples.

Results

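Mural cells are the contractile and supporting cells wrapped around blood vessels, and 491 droplet barcodes of adult mouse back skin met a rule for them, of 22819 barcodes kept and 23455 deposited. A barcode was kept with at least 200 genes detected and at most 10% of its unique molecular identifiers (UMIs, one per captured transcript) from mitochondrial genes. It was taken as mural when Rgs5 made up at least 5 of every 10000 UMIs, or when Acta2, Tagln and Myh11 together made up at least 30 of every 10000 with at least 1 Myh11 UMI. Pecam1, an endothelial adhesion molecule, and Ptprc, the pan-leukocyte phosphatase CD45, had to be at 0 UMIs. The members were thus chosen by their Rgs5, Acta2, Tagln, Myh11, Pecam1 and Ptprc UMIs, and these genes are described below and not read as results.

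The study profiled sorted back-skin cells of CD1 mice aged 7 to 8 weeks with 10x Chromium 3′ v2 chemistry, crossing genotype with a skin irritant. Imiquimod is a Toll-like receptor 7 agonist whose topical use gives a psoriasis-like inflammation in mice. Ovol1 codes for a transcription factor with zinc fingers that acts in epithelia. There were 4 libraries, 1 per group: Ovol1 null skin with imiquimod, control skin with imiquimod, untreated Ovol1 null skin and untreated control skin. The imiquimod groups received 1 dose of 62.5 mg of a 5% cream on the shaved back; the labels do not give the sorting gate, the deleted part of Ovol1 or the number of animals per library. In mural cells Ovol1 had 6 UMIs in the labelled-null imiquimod library and 4 in the labelled-null untreated library, against 0 in both control libraries, so these 3′ tags cannot check the genotype, and those libraries are called labelled null throughout.

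With 1 library per group there is no replicate and no test between conditions. Each comparison below sets the summed UMIs of 2 libraries side by side as a ratio with an exact 95% counting interval. The interval treats every UMI as independent and leaves out the spread between animals, between captures and between cells. Where few cells hold most UMIs of a gene, it is too narrow for the spread between cells. A gene counted as measured in a comparison from 20 UMIs summed over the 2 libraries, and as called higher or lower when its ratio reached 2-fold and the interval lay on one side of 1. Levels are UMIs scaled to 1e6 per library (CPM) over the mural cells of a library. Comparisons that share a library are not independent of each other.

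Mural cells comprise vascular smooth muscle cells, which ring arterioles and venules and contract through smooth-muscle actin and myosin, and pericytes, which sit in the basement membrane of capillaries. Both depend on endothelial PDGF-B acting on the receptor Pdgfrb and on Notch3 signalling from endothelial Jagged1. In inflamed tissue they meet interferons and cytokines, and they can themselves release chemokines that direct leukocytes leaving the vessel.

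The labelled-null imiquimod library held 230 mural cells, 4.06% of its kept barcodes (exact 95% interval 3.56 to 4.602%). Control imiquimod skin held 66, or 1.16% (0.901 to 1.48%), labelled-null untreated skin held 86, or 1.63% (1.30 to 2.003%), and control untreated skin held 109, or 1.76% (1.45 to 2.12%). The cells had been sorted before capture, so these shares need not be those of the skin. Mural UMIs summed to 1127171 in labelled-null imiquimod skin, 209220 in control imiquimod, 380339 in labelled-null untreated and 509276 in control untreated, and the median mural cell held 4239, 2622.5, 4092.5 and 3780 UMIs in that order. The shallowest mural cell had 3091 UMIs in the labelled-null imiquimod library, and between 1437 and 1774 in the other 3 libraries. Between 37 and 47 barcodes were shared by each pair of libraries; 12 mural cells carried a barcode that also occurs elsewhere, and in 0 cases was it mural in both.

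Markers that the rule did not use set the members apart from fibroblasts and keratinocytes. After thinning every cell to 1000 UMIs, at least 2 of 16 other mural genes were detected in 92.6% of mural cells of labelled-null imiquimod skin, 95.5% of control imiquimod, 96.5% of labelled-null untreated and 96.3% of control untreated. The same held for 7.2 to 10.7% of fibroblasts and for 0.431 to 1.61% of keratinocytes. Unthinned, it held for 98.2 to 100% of mural cells and for 40.8 to 55.2% of fibroblasts. The 16 genes include Des and Lmod1, which also mark the other smooth-muscle cells of skin. The check therefore cannot tell those cells from mural cells. Notch3 stood at 500.4 CPM in labelled-null imiquimod skin, 396.7 in control imiquimod, 333.9 in labelled-null untreated and 353.4 in control untreated. Pdgfrb stood at 322.9, 262.9, 202.5 and 137.5 CPM in the same order. The channel subunits Kcnj8 and Abcc9, which mark pericytes in other organs, were scarce: Kcnj8 had 40 UMIs in labelled-null imiquimod, 2 in control imiquimod, 6 in labelled-null untreated and 0 in control untreated cells, and Abcc9 had at most 11 in a library. Cells that met the Rgs5 condition alone, because their contractile UMIs were few or held no Myh11, are therefore named by the rule as Rgs5-only and not as pericytes.

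**Figure D1:**
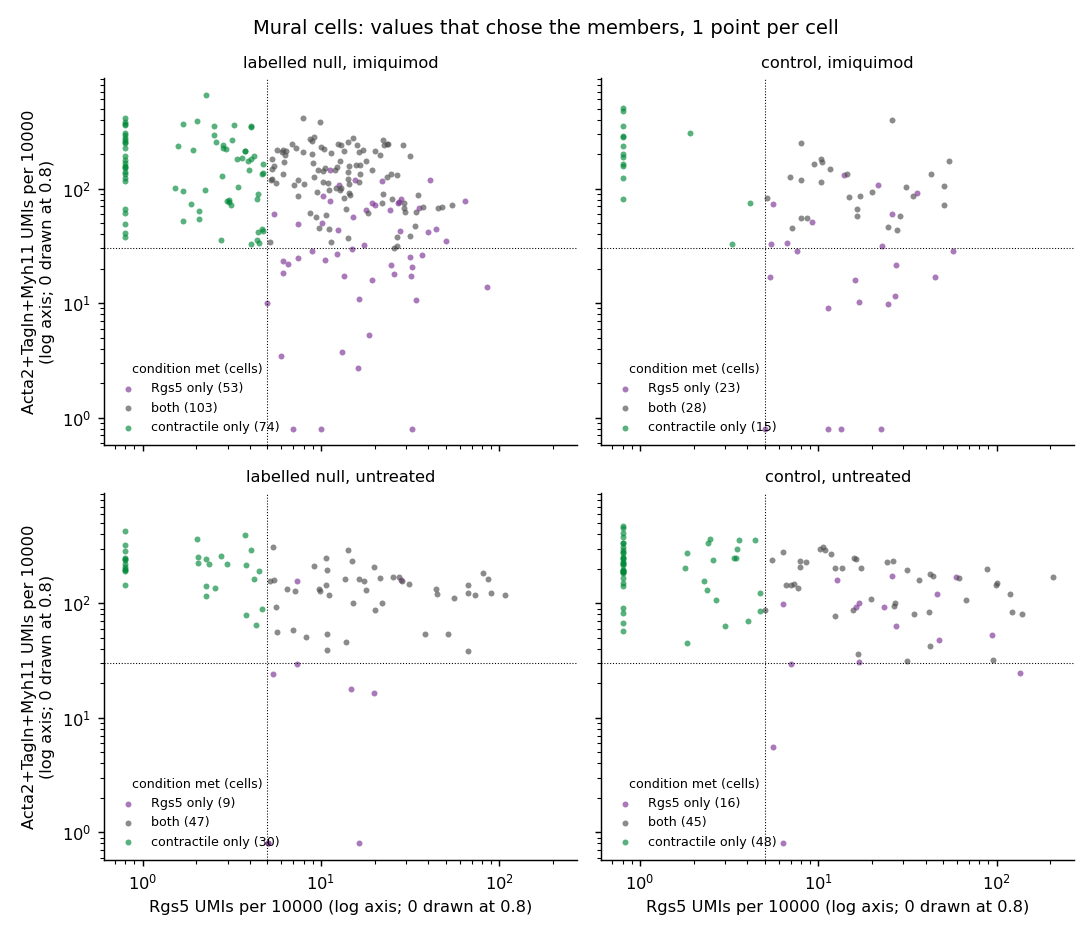
Each point is 1 mural cell, plotted by its Rgs5 UMIs per 10000 (x axis, log) and its summed Acta2, Tagln and Myh11 UMIs per 10000 (y axis, log), with 1 panel per library and the condition met shown by colour; values of 0 are drawn at 0.8 and dotted lines mark 5 and 30 per 10000. Rgs5-only points above the horizontal line are cells with no Myh11 UMI. Cells meeting both conditions are the most frequent class in the 2 imiquimod libraries and the labelled-null untreated library, and cells meeting only the contractile condition are the most frequent in the control untreated library (48 against 45 of 109).

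Transcripts of other cell types were present in the same barcodes. The summed level of 10 fibroblast markers was 4423 CPM in labelled-null imiquimod mural cells, 3293 in control imiquimod, 3471 in labelled-null untreated and 14140 in control untreated, and a single cell held between 14.8 and 21.7% of them in each library. Keratinocyte markers summed to 2183, 2007, 3510 and 1909 CPM in that order. Genes of the arrector pili muscle and the dermal sheath, the other smooth-muscle cells of skin, summed to 1663, 2882, 1677 and 2578 CPM. Their part in the results was not tested. Scrublet, a doublet caller, marked 11, 4, 3 and 9 of the mural cells in that order, and these were kept. At the Rgs5 threshold the nearest cell inside had 5.01 UMIs per 10000 and the nearest outside 4.77; at the contractile threshold these were 32.5 and 28.9.

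The rule joins 3 kinds of cell. Cells with the contractile genes only made up 32.2% of labelled-null imiquimod, 22.7% of control imiquimod, 34.9% of labelled-null untreated and 44.0% of control untreated mural cells; Rgs5-only cells made up 23.04, 34.8, 10.47 and 14.7%; and the rest met both conditions. The Rgs5-only cells numbered 53, 23, 9 and 16 in that order. As the rule genes fix, Rgs5 itself was 12.5-fold lower, and Acta2 4.65-fold and Myh11 14.2-fold higher, in contractile-only than in Rgs5-only cells.

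Genes outside the rule differed along with it, although the cells were split on the same UMIs and the ratios are descriptions. Cnn1, the actin-binding calponin of differentiated smooth muscle, averaged 503.3 CPM in contractile-only cells over the 4 libraries and 93.7 CPM in cells meeting both conditions, against 2.46 CPM in Rgs5-only cells. Actg2, the enteric-type smooth-muscle actin, stood at 595.2 and 81.9 CPM, against 9.86 CPM in Rgs5-only cells. Among contractile genes other than those of the rule, 25 of 26 measured in labelled-null imiquimod skin were higher in contractile-only than in Rgs5-only cells, as were 21 of 21 in control imiquimod, 25 of 25 in labelled-null untreated and 26 of 26 in control untreated skin, with median log2 ratios of 1.36, 2.54, 2.46 and 1.25. The median over all genes lay between -0.01 and 0.11 in those libraries.

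Genes that accompany Rgs5 in pericytes were lower in contractile-only than in Rgs5-only cells in 13 of 19 measured in labelled-null imiquimod, 10 of 12 in control imiquimod, 6 of 11 in labelled-null untreated and 10 of 13 in control untreated skin, with median log2 ratios of -0.69, -0.74, -0.08 and -0.85. Contractile-only cells had 4.28-fold less Higd1b, a member of the hypoxia-induced HIG1 domain family (95% interval 3.30 to 5.57), 3.67-fold less Cox4i2, the hypoxia-type subunit of cytochrome oxidase, and 6.49-fold less Vtn, the matrix glycoprotein vitronectin. Tnfrsf21, the death receptor DR6, was 29.7-fold lower in contractile-only cells. Pdgfrb was 1.98-fold lower (1.57 to 2.49), short of the 2-fold line. Notch3 had a contractile-only to Rgs5-only ratio of 1.07 (0.874 to 1.31), with its highest level, 519.3 CPM, in cells meeting both conditions. Cspg4, the NG2 proteoglycan commonly used as a pericyte marker, was 3.49-fold higher in contractile-only cells (1.73 to 7.95).

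**Figure D2:**
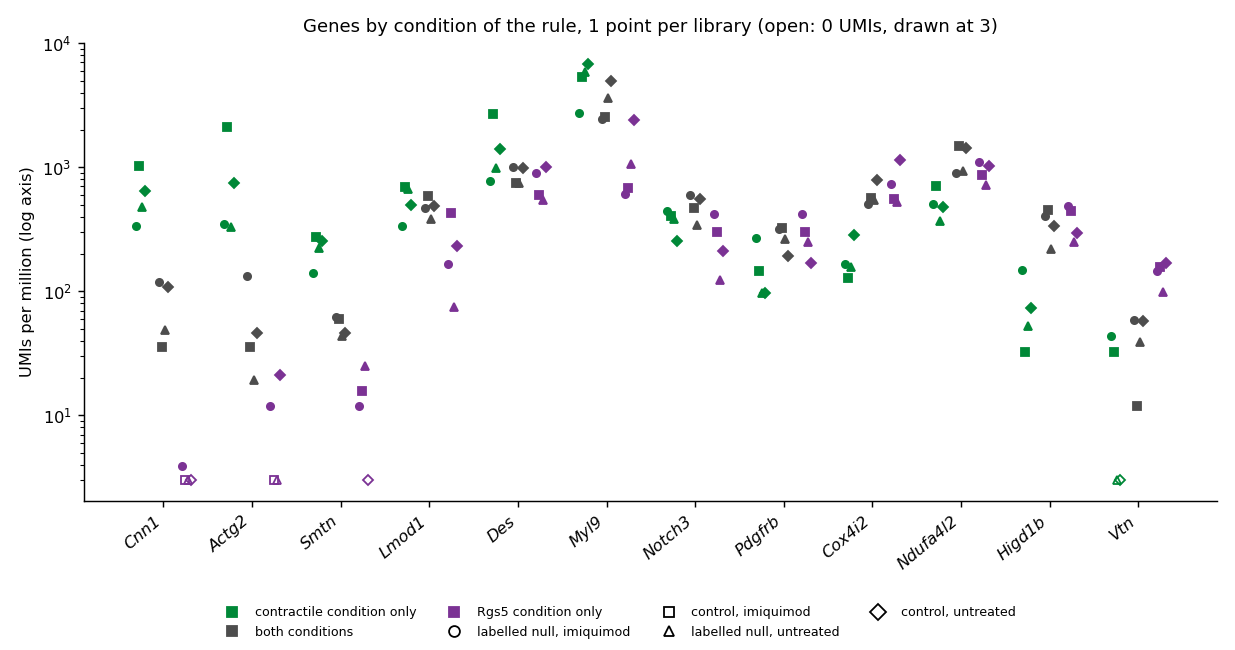
Level in CPM (log axis) of 12 genes outside the rule in contractile-only, both-condition and Rgs5-only mural cells, with 1 point per library and values of 0 drawn at 3 CPM. Cnn1, Actg2 and Smtn descend to the Rgs5-only cells, Higd1b, Cox4i2 and Vtn run the other way, and Notch3 differs little when the libraries are summed (contractile-only 371 CPM, Rgs5-only 347.5 CPM over the 4 libraries).

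Imiquimod skin was compared with untreated skin of the same genotype to ask which transcripts differ with treatment. Over all measured genes, 14% of 6613 were called in the labelled-null comparison (448 higher and 477 lower) and 11% of 4370 in the control comparison (227 higher and 253 lower). These splits depended on scaling: with TMM factors from edgeR the labelled-null comparison had 603 higher and 320 lower genes, and the higher share in the control comparison moved to 38.9% of calls, from 47.3% without them. With the same factors the centre of all log2 ratios shifted by 0.17 in the labelled-null imiquimod comparison, by 0.21 between the imiquimod libraries and by less than 0.1 in the other 2. Of 4307 genes measured in both comparisons, 82 were higher in both, 53 lower in both and 31 called in opposite directions.

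Interferon-stimulated genes, the antiviral programme switched on through the interferon receptors, had the largest median shift of the 20 gene lists in both genotypes. In labelled-null skin 33 of 35 measured genes were higher with imiquimod and 0 lower, against a background of 6.77% of all genes called higher, and the list median was 3.41 on the log2 scale (3.35 with genes at 0 UMIs set at their bound). In control skin 25 of 25 were higher, against 5.19%, with a median of 3.27. Over all genes the medians were -0.09 and -0.05. Set against each other, labelled-null over control imiquimod cells had 3 of 35 interferon genes higher and 1 lower, where 9.54% of 6141 genes were called in all (273 higher and 313 lower, or 466 and 202 with TMM factors).

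Irf7, the transcription factor that amplifies type I interferon, had 912 CPM in labelled-null imiquimod cells and 559.2 CPM in control imiquimod cells, against 2.629 CPM in labelled-null untreated and 1.964 CPM in control untreated cells. Each untreated library held a single Irf7 UMI, so the ratios of 346.9 (62.1 to 13710) and 284.8 (50.1 to 11340) have wide intervals. Thinned to 1000 UMIs, 52.6% of labelled-null imiquimod and 37.9% of control imiquimod mural cells had an Irf7 UMI, against 0% in both untreated libraries; unthinned shares were 85.2, 66.7, 1.16 and 0.917%. Fibroblasts showed the same order, with thinned shares of 44.8, 22.4, 0.8 and 1.1%, so the treatment difference in Irf7 was shared with fibroblasts.

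Ifit1, which binds viral RNA caps, stood at 221.8 CPM in labelled-null imiquimod and 301.1 CPM in control imiquimod cells, against 2.629 and 1.964 CPM in the matching untreated cells. Bst2, the virion-tethering protein tetherin, stood at 1035 and 697.8 CPM in those imiquimod cells, against 23.7 and 53.0 CPM, a 43.8-fold (22.97 to 95.9) and a 13.2-fold (8.69 to 20.6) higher level. Both genes had imiquimod levels above every untreated library. Ifitm3, a membrane protein that blocks viral entry, reached 10050 CPM in labelled-null imiquimod and 6496 CPM in control imiquimod cells, against 983.3 and 1229 CPM untreated. The ubiquitin-like modifier Isg15 stood at 1167 and 602.2 CPM, against 113.1 and 127.6 CPM.

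Interferon-stimulated promoters are known to carry the interferon-stimulated response element, whose core was searched as GAAANNGAAA on both strands of the 300 bases from 250 before to 50 after each RefSeq gene start (GRCm38.p6). Of 42 interferon genes listed, 32 had a promoter in the table and 19 of these (59.4%) held the motif, against 3.99% of 27025 genes. One match each of 5 interferon genes is shown 5′ to 3′ on the gene's strand, with the motif or its reverse complement in capitals; each of these promoters held at least 1 further match, not shown. Ifit3, a partner of Ifit1, stood at 275.0 CPM in labelled-null imiquimod and 167.3 CPM in control imiquimod cells, against 2.629 and 3.927 CPM in the matching untreated cells.
Isg15, chr4:156200871-156200900, minus strand: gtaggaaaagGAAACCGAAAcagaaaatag
Ifit1, chr19:34640775-34640804, plus strand: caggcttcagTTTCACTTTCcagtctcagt
Ifit3, chr19:34583363-34583392, plus strand: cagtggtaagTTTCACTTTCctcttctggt
Bst2, chr8:71537583-71537612, minus strand: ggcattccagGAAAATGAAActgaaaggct
Ifitm3, chr7:141010706-141010735, minus strand: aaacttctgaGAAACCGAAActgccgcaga
Ifit1 and Ifit3 share the same 10 letters in capitals, and a match describes these letters only, not binding.

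Antigen presentation by MHC class I was higher with imiquimod as well: 15 of 18 measured genes in labelled-null skin and 12 of 15 in control skin, with 0 lower in either and medians of 1.76 and 1.42 on the log2 scale. Of all genes 6.77 and 5.19% were called higher in those comparisons. B2m, the light chain of all class I molecules, stood at 7292 CPM in labelled-null imiquimod and 3924 CPM in control imiquimod cells, against 846.6 and 1141 CPM in untreated cells, a ratio of 8.61 (7.70 to 9.66) and of 3.44 (3.09 to 3.83). The classical heavy chain H2-D1 stood at 4055 and 4545 CPM, against 991.2 and 897.4 CPM. Psmb8, the inducible proteasome subunit that makes class I peptides, was 10.3-fold higher in labelled-null imiquimod skin (6.08 to 19.03). Fibroblasts of the same libraries had a B2m ratio of 3.90 in labelled-null and 3.87 in control skin. The MHC class II genes were near the measuring limit: 0 of 2 measured in labelled-null skin were higher and both were lower, and 0 of 3 measured in control skin were called.

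**Figure D3:**
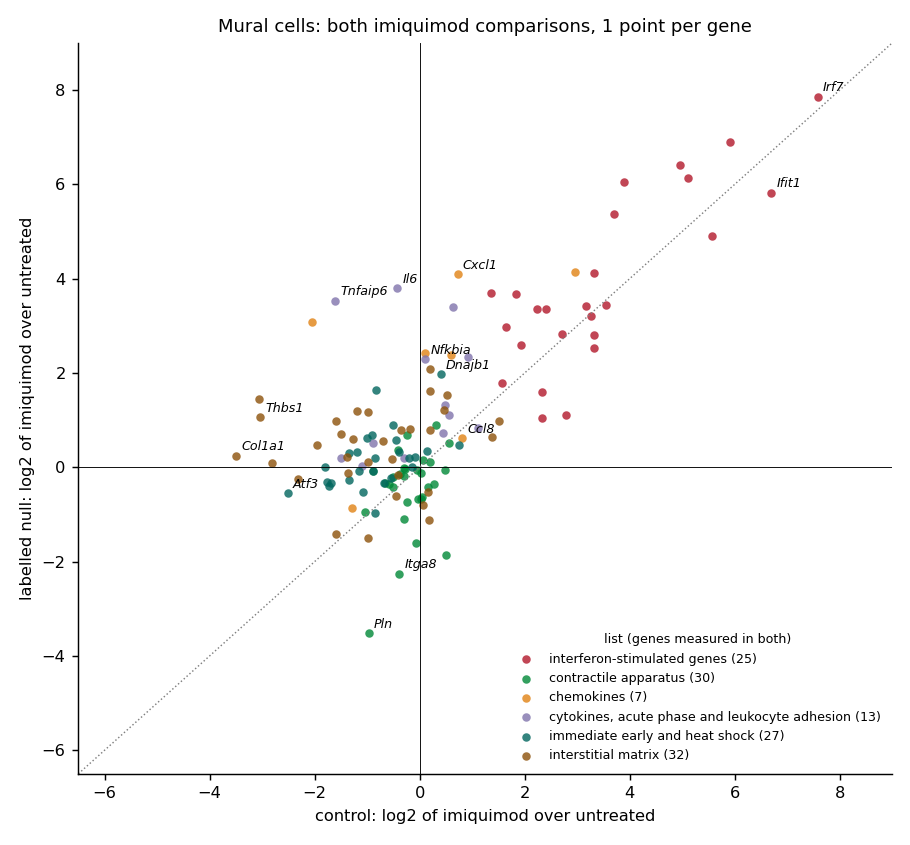
Log2 ratio of imiquimod to untreated mural cells for the measured genes of 6 lists, in labelled-null skin (y axis) against control skin (x axis), with the line of equal ratios. All 25 interferon genes lie in the upper right, above 0 in both genotypes; cytokine and chemokine genes spread upward along the y axis, Pln lies lowest among the contractile genes, and most immediate early genes lie left of 0.

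Cytokine and chemokine genes differed between the genotypes under imiquimod. In labelled-null skin, 8 of 10 measured chemokines and 15 of 24 measured genes of the cytokine, acute-phase and adhesion list were higher with imiquimod, and 0 of either were lower. In control skin 1 of 8 chemokines was higher and 3 lower, and 1 of 13 cytokine-list genes was higher and 3 lower. Over all genes 6.77% were called higher and 7.21% lower in labelled-null skin, and 5.19 and 5.79% in control skin. Set directly against each other, labelled-null over control imiquimod cells had 4 of 10 chemokines higher and 2 lower, and 8 of 24 cytokine-list genes higher and 1 lower, against 4.45% of all genes called higher and 5.1% lower. The difference between the genotypes' responses was not tested.

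Il6, the acute-phase inducing cytokine, had 1771 CPM in labelled-null imiquimod cells, 248.5 in control imiquimod, 126.2 in labelled-null untreated and 337.7 in control untreated. The labelled-null imiquimod library stood above the other 3, which did not separate by treatment. Il6 was 14.03-fold higher with imiquimod in labelled-null skin (10.54 to 19.1) and 7.13-fold higher than in control imiquimod skin (5.41 to 9.57). It was found in 101 of 230 labelled-null imiquimod cells, 4 of 66 control imiquimod, 10 of 86 labelled-null untreated and 21 of 109 control untreated cells. The top cell held 5.61% of its UMIs in labelled-null imiquimod cells, but 55.8% in control imiquimod cells and 50% in labelled-null untreated cells. Thinned to equal depth the shares of cells were 34.3, 6.06, 6.98 and 11%; unthinned they were 43.9, 6.06, 11.6 and 19.3%. Fibroblasts of the same libraries had thinned shares of 4.9, 1.4, 4.8 and 6.3%.

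Cxcl1, a neutrophil chemoattractant, was also highest in the labelled-null imiquimod library, at 4451 CPM in labelled-null imiquimod, 1185 in control imiquimod, 260.3 in labelled-null untreated and 720.6 in control untreated cells. It was 17.1-fold higher with imiquimod in labelled-null skin (14.02 to 21.1); the control ratio of 1.65 was not called. Cxcl1 was detected in 147, 8, 11 and 27 cells in that order, and 94 cells of the labelled-null imiquimod library held both Il6 and Cxcl1, against 4 in control imiquimod skin. Its thinned shares were 50, 10.6, 4.65 and 13.8% in mural cells, and between 1.2 and 6.1% in fibroblasts.

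The 52 Il6 and 248 Cxcl1 UMIs of control imiquimod mural cells all lay in Rgs5-only cells, at 820 and 3911 CPM. In the labelled-null imiquimod library Il6 stood at 1153 CPM in contractile-only cells, 1824 in cells meeting both conditions and 2668 in Rgs5-only cells, so all 3 kinds carried it. Within Rgs5-only cells the labelled-null to control imiquimod ratio was 3.25 for Il6 (2.45 to 4.40) and 1.32 for Cxcl1 (1.15 to 1.51), of which only Il6 was called. The 28 control imiquimod cells meeting both conditions held 0 UMIs of either gene. With 3 UMIs set in place of that 0, the labelled-null to control ratio in this kind was 51.0 for Il6 and 140.6 for Cxcl1. Single cells of the control imiquimod library held up to 29 Il6 and 95 Cxcl1 UMIs. A further positive cell could thus lower these ratios, and they are not lower bounds.

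Other members of the group followed. Ccl2, the monocyte chemoattractant, stood at 208.5 CPM in labelled-null imiquimod cells, against 9.56, 5.26 and 7.85 CPM in control imiquimod, labelled-null untreated and control untreated cells, with 32.8% of the first in 1 cell. Saa3, an acute-phase apolipoprotein, stood at 2502 CPM in labelled-null imiquimod and 52.6 CPM in control imiquimod cells, and was at 0 UMIs in both untreated libraries. It was 47.6-fold higher in labelled-null than in control imiquimod mural cells (26.6 to 95.4), and 11.03-fold higher in the fibroblasts of those libraries, where it stood at 18390 and 1667 CPM. Nfkbia, the inhibitor that NF-kappa B induces against itself, stood at 2426, 855.6, 496.9 and 799.2 CPM in the order labelled-null imiquimod, control imiquimod, labelled-null untreated, control untreated, and the NF-kappa B brake Tnfaip3 at 205.8, 57.4, 18.4 and 37.3 CPM. Sod2, the mitochondrial superoxide dismutase, was 3.93-fold higher with imiquimod in labelled-null skin (3.05 to 5.13) and 4.75-fold higher than in control imiquimod skin (3.30 to 7.09).

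Single cells set some control imiquimod values. Il1b, the inflammasome cytokine, appeared lower in labelled-null than in control imiquimod cells (30.2 against 205.5 CPM), but 1 cell held 97.7% of the control UMIs. Of the neutrophil-attracting Cxcl2, 94.4% of the control imiquimod UMIs were in 1 cell; its 7.97-fold higher level with imiquimod in control skin (3.97 to 17.4) rests on that cell. S100a9, a neutrophil calcium-binding protein, likewise had 95.5% of its control imiquimod UMIs in 1 cell.

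NF-kappa B sites were searched in the same promoters, and 4 of 12 chemokine genes (33.3%) and 8 of 25 cytokine-list genes (32.0%) with a promoter held one, against 9.55% of all genes. They are shown because Il6, Cxcl1 and Nfkbia are among the genes that differ above; capitals mark the match.
Cxcl1, chr5:90891164-90891193, plus strand: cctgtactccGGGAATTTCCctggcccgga
Cxcl2, chr5:90903792-90903821, plus strand: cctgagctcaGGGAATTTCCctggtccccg
Il6, chr5:30013060-30013089, plus strand: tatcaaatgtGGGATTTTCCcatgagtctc
Nfkbia, chr12:55492657-55492686, minus strand: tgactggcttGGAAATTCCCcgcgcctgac
The neighbouring genes Cxcl1 and Cxcl2 have the same 10 letters in capitals.

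**Figure D4:**
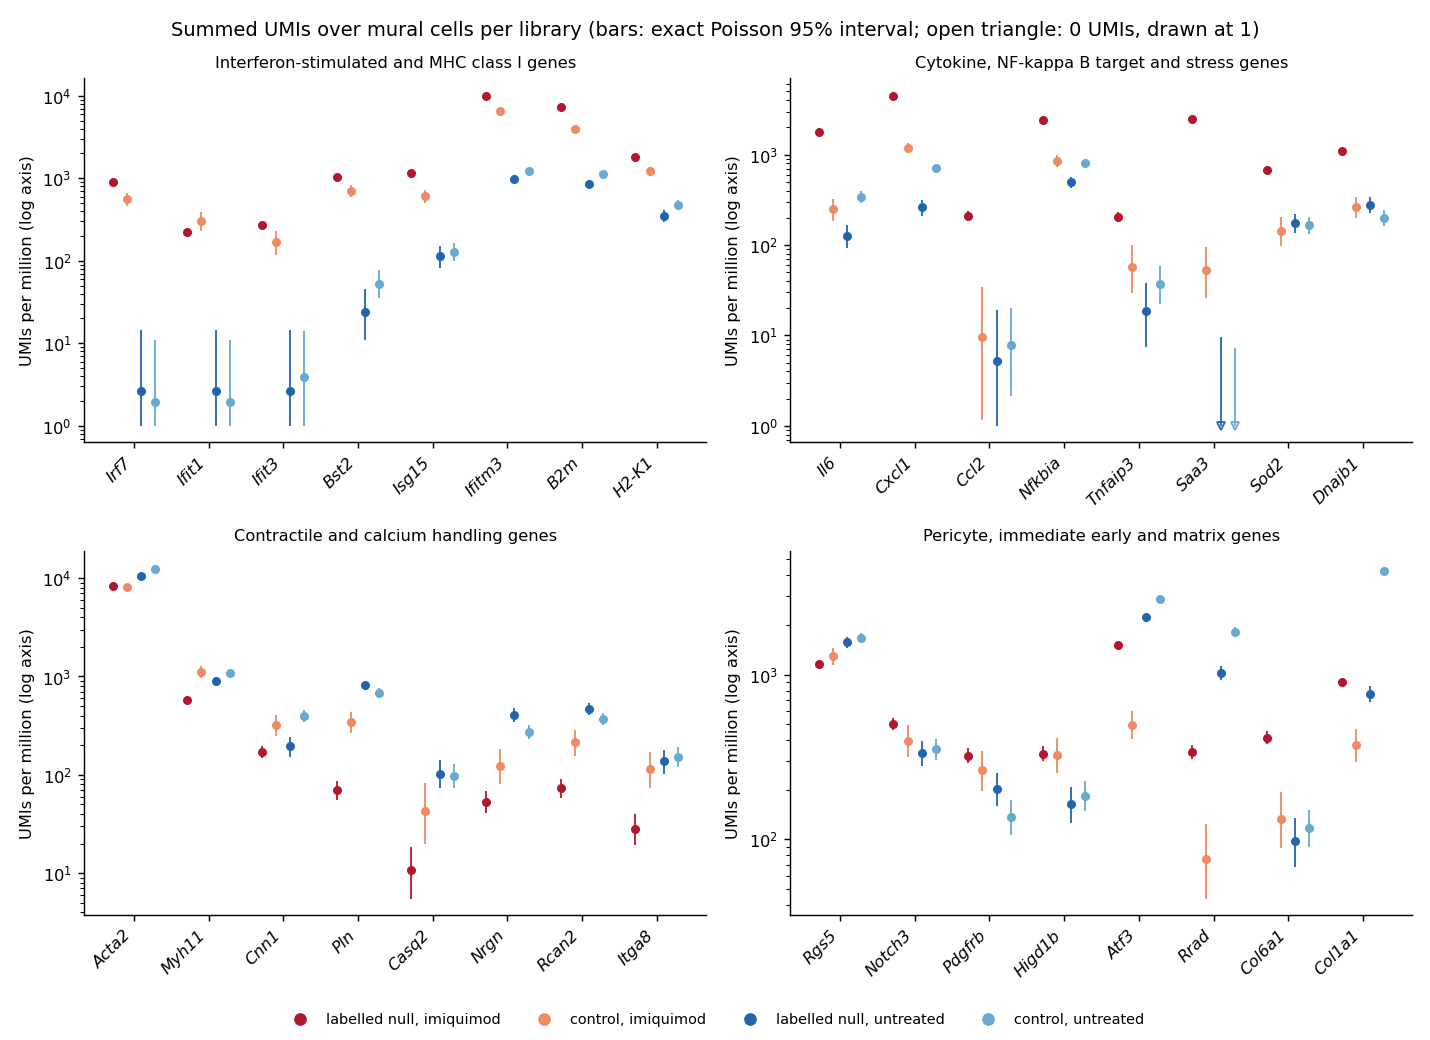
Level in CPM (log axis) with exact Poisson 95% intervals of 32 genes in mural cells of each library, in 4 panels (interferon and MHC class I, cytokine, contractile, and mural, immediate early and matrix genes); open triangles mark 0 UMIs, drawn at 1. Interferon genes separate the imiquimod from the untreated libraries, Il6, Cxcl1 and Saa3 separate the labelled-null imiquimod library from the other 3, and Pln is lowest in the labelled-null imiquimod library (70.1 CPM).

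**Figure D5:**
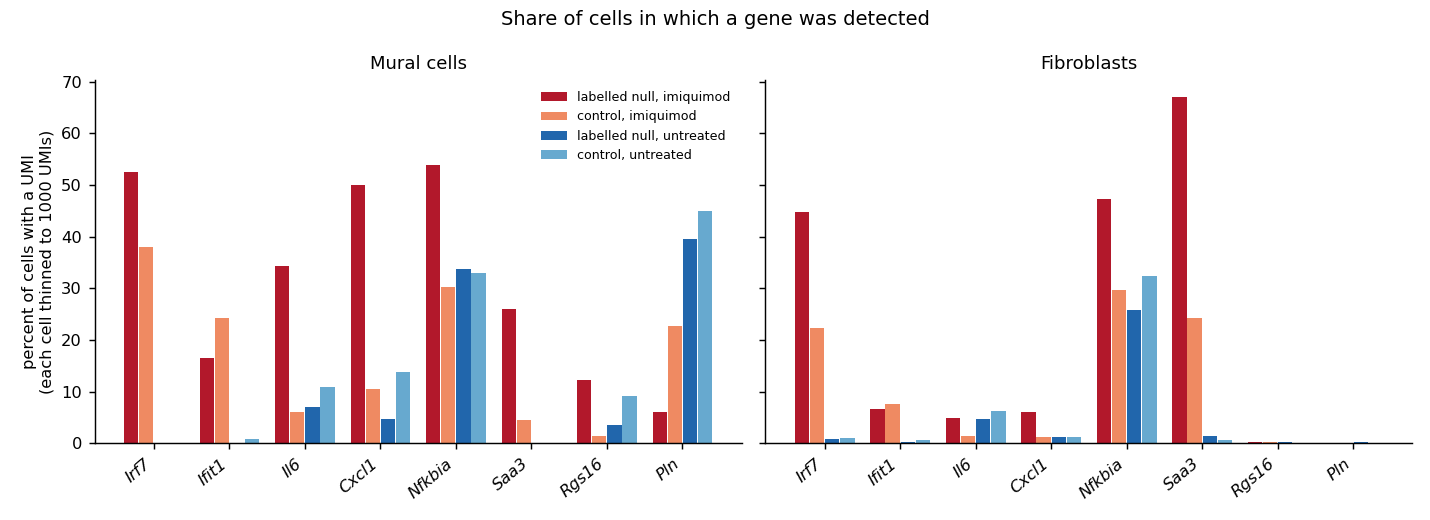
Percent of cells with at least 1 UMI of 8 genes after thinning every cell to 1000 UMIs, in mural cells and fibroblasts of each library. The Il6 share is 34.3% in labelled-null imiquimod mural cells, 11% or less in the other 3 libraries, and at most 6.3% in fibroblasts, while Saa3 is more widespread in fibroblasts (67% in labelled-null imiquimod skin).

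Contractile genes outside the rule differed by kind of mural cell, and the largest fold among them was in a gene of calcium handling. In labelled-null skin 5 of 27 were lower with imiquimod and 0 higher, against 7.21% of all genes called lower, and the list median was -0.205 on the log2 scale. In control skin 1 of 27 was lower, against 5.79%, with a median of -0.24. Between imiquimod libraries 7 of 27 were lower in labelled-null than in control cells, against 5.1%, with a median of -0.52. None of these 3 medians kept its direction in all kinds of cell. In contractile-only cells, cells meeting both conditions and Rgs5-only cells, it was -0.70, 0.29 and 0.15 with imiquimod in labelled-null skin, 0.59, -0.40 and -0.52 in control skin, and -1.06, 0.18 and 0.06 between the imiquimod libraries. Lower calls in labelled-null skin numbered 11 of 27 in contractile-only cells, against 3 of 27 lower and 4 higher in cells meeting both conditions. All genes called either way came to 17.3 and 13.2% in those kinds. Myl9, the regulatory myosin light chain, was the gene called lower with imiquimod in control skin, at 2801 CPM against 5802 CPM in untreated skin (2.07-fold lower, 1.90 to 2.27). Within kinds it stood at 5324 against 6861 CPM in contractile-only cells, 2541 against 4990 CPM in cells meeting both conditions and 678.1 against 2401 CPM in Rgs5-only cells, so contractile-only and both-condition cells stayed short of 2-fold. Rgs5-only cells, which hold the least Myl9, made up 34.8% of control imiquimod and 14.7% of control untreated mural cells.

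Serum response factor, the main activator of smooth-muscle genes, is known to bind the CArG box. Its letters were present in 3 of 25 contractile genes with a promoter (12%), against 1.81% of all genes, and are shown for Myl9 because it is the contractile gene called in control skin; capitals mark the match.
Myl9, chr2:156775293-156775322, plus strand: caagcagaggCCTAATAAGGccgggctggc

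Pln, phospholamban, which restrains the calcium pump of the sarcoplasmic reticulum, had 70.1 CPM in labelled-null imiquimod and 344.1 in control imiquimod cells, against 809.8 in labelled-null untreated and 679.4 in control untreated cells. Both untreated libraries stood above both imiquimod libraries. Pln was 11.6-fold lower with imiquimod in labelled-null skin (8.997 to 14.99); the 1.97-fold lower level in control skin (1.53 to 2.58) fell short of 2-fold, and passed it, at -1.19 on the log2 scale, when each library's highest Pln cell was left out. Labelled-null imiquimod cells had 4.91-fold less than control imiquimod cells (3.52 to 6.85). At equal depth Pln was detected in 6.09% of labelled-null imiquimod and 22.7% of control imiquimod mural cells, against 39.5% of labelled-null untreated and 45% of control untreated ones; the unthinned shares were 18.7, 36.4, 68.6 and 75.2%. Fibroblasts had at most 0.2%.

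The lower Pln level of labelled-null imiquimod skin was seen within kinds of mural cell. It was 15.8-fold lower than untreated in contractile-only cells (10.6 to 24.2) and 6.52-fold lower in cells meeting both conditions (4.68 to 9.21). In control skin the contractile-only ratio of imiquimod to untreated was 1.004 (0.698 to 1.41), while cells meeting both conditions had 2.61-fold less and Rgs5-only cells 4.68-fold less. Casq2, the calcium-binding calsequestrin of the same store, stood at 10.6, 43.0, 102.5 and 98.2 CPM in the order labelled-null imiquimod, control imiquimod, labelled-null untreated, control untreated, and was 9.63-fold lower with imiquimod in labelled-null skin (4.94 to 20.2).

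Neighbouring functions went with them in labelled-null skin. Nrgn, the calmodulin-binding neurogranin, stood at 53.2 CPM in labelled-null imiquimod and 124.3 in control imiquimod cells, against 410.2 and 274.9 CPM in the matching untreated cells. Rcan2, an inhibitor of the calcium-dependent phosphatase calcineurin, stood at 72.8 and 215.1 CPM, against 468.0 and 369.2 CPM. Itga8, the integrin subunit that holds smooth muscle to the matrix, was 4.82-fold lower with imiquimod in labelled-null skin (3.04 to 7.73), and the Z-disc protein Pdlim3 3.06-fold lower (2.27 to 4.12). Of 13 measured ion channel and pump genes, 5 were lower and 0 higher there, against 7.21% of all genes called lower. Among the 5 was the sodium pump subunit Atp1b2 (2.21-fold, 1.70 to 2.87). In control skin 0 of 10 were called, against 11% of all genes. Pcp4, another calmodulin regulator, was 108.2-fold lower with imiquimod in labelled-null skin (28.9 to 910.1), but it was held by few cells, and 65.7% of the labelled-null untreated UMIs were in 1 of them.

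Among transcription factors that keep mural cells differentiated, 3 of 20 measured were lower and 0 higher with imiquimod in labelled-null skin, and 3 of 16 lower in control skin. Of all genes 7.21 and 5.79% were called lower in those comparisons. Mef2c, which drives muscle genes, stood at 326.5 CPM in labelled-null imiquimod and 439.7 in control imiquimod cells, against 857.1 and 657.8 CPM in untreated cells, and was called lower in labelled-null skin (2.62-fold, 2.25 to 3.06). Klf2, which blood flow induces in vessels, was lower in both genotypes, at 1128 and 903.4 CPM in labelled-null and control imiquimod cells, against 2406 and 2250 CPM in untreated cells. Within Rgs5-only cells the labelled-null change of Klf2 was 0.09 on the log2 scale, with only 9 such cells in labelled-null untreated skin. Among Notch pathway genes 1 of 11 was called in labelled-null skin, the ligand Jag1, which was higher (2.08-fold, 1.26 to 3.64), and 1 of 8 in control skin, a regulator of nuclear receptors, Nrip2, which was lower (2.14-fold, 1.60 to 2.91); these shares are near the 14 and 11% of all genes called. Nrip2 had a ratio of 0.506 in labelled-null skin, just short of the 2-fold line. The Notch targets Hes1, at 616.6 to 909.7 CPM, and Nrarp, at 143.4 to 279.5 CPM over the 4 libraries, were not called in either comparison.

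Of the genes named for pericytes, 5 of 21 measured were higher with imiquimod in labelled-null skin and 0 lower, against 6.77% of all genes called higher, and 1 of 17 was higher in control skin, against 5.19%. Within kinds the labelled-null count was 3 of 16 higher and 1 lower in contractile-only cells, 0 of 17 higher and 1 lower in cells meeting both conditions, and 1 of 16 higher in Rgs5-only cells. All genes called either way came to 17.3, 13.2 and 14.3% in those kinds. Higd1b stood at 330.9 CPM in labelled-null imiquimod and 325.0 in control imiquimod cells, against 163.0 and 184.6 CPM untreated, and was called in labelled-null skin (2.03-fold, 1.55 to 2.70). Rgs5-only cells, in which Higd1b is higher, also made up more of the imiquimod than of the untreated mural cells. Within kinds the labelled-null imiquimod and untreated levels were 149 and 52.24 CPM in contractile-only cells. They were 403.6 and 218.5 CPM in cells meeting both conditions, and 491.2 and 247.8 CPM in Rgs5-only cells. In control skin they were 32.27 and 73.21, 453.3 and 337.2, and 441.6 and 294.9 CPM in that order. The part of the mixture of kinds was not tested. Rgs4, a G-protein brake related to Rgs5, ranged from 669.2 to 785.4 CPM over the 4 libraries.

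Vasoactive receptor and Rgs genes had 3 of 15 measured higher and 0 lower with imiquimod in labelled-null skin, and 1 of 13 higher and 4 lower in control skin. Over all genes 6.77% were called higher and 7.21% lower in labelled-null skin, and 5.19 and 5.79% in control skin. Rgs16, of the same family as Rgs5, stood at 497.7 CPM in labelled-null imiquimod and 38.2 in control imiquimod cells, against 113.1 in labelled-null untreated and 229.7 in control untreated cells. With imiquimod it was 4.40-fold higher in labelled-null (3.23 to 6.15) and 6.01-fold lower in control skin (2.95 to 14.2). In labelled-null Rgs5-only cells the imiquimod and untreated levels lay close together, at 903.8 and 867.3 CPM. They were 649.6 and 33.99 CPM in cells meeting both conditions, and 73.29 and 7.462 CPM in contractile-only cells. In control skin the levels in the same order of kinds were 94.62 and 674.1, 0 and 297.2, and 32.27 and 115 CPM. In fibroblasts Rgs16 did not pass 6.20 CPM in any library. Avpr1a, the vasopressin receptor that constricts vessels, and P2rx1, the ATP-gated channel of sympathetic vasoconstriction, were 4.25-fold (2.50 to 7.77) and 3.04-fold lower (1.564 to 6.601) with imiquimod in control skin. Both were higher in labelled-null than in control imiquimod cells (2.86-fold and 2.88-fold), as was Ptgir, the receptor for the dilator prostacyclin (4.32-fold).

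Of the basement membrane genes, 3 of 21 measured were higher and 3 lower with imiquimod in labelled-null skin. Of all genes 6.77% were called higher and 7.21% lower there. In control skin 0 of 17 were higher and 2 lower, against 5.19 and 5.79% of all genes. Within labelled-null kinds 2 of 17 were higher and 5 lower in contractile-only cells. In cells meeting both conditions 3 of 17 were higher and 2 lower, and in Rgs5-only cells 2 of 12 were higher and 1 lower. All genes called either way came to 17.3, 13.2 and 14.3% in those kinds. Col4a2, a chain of the type IV collagen network, stood at 187.2 CPM in labelled-null imiquimod and 119.5 in control imiquimod cells, against 49.96 and 92.3 CPM untreated. Col18a1, the source of endostatin, stood at 246.6 and 114.7 CPM, against 81.5 and 106.0 CPM. Both were called higher in labelled-null skin, at 3.75-fold (2.34 to 6.35) and 3.03-fold (2.08 to 4.54). Bcam, the laminin receptor on smooth muscle, was 2.22-fold lower there.

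Interstitial matrix genes called with imiquimod were mostly higher in labelled-null skin and mostly lower in control skin. In labelled-null skin 10 of 37 measured were higher and 3 lower, against 6.77 and 7.21% of all genes. In control skin 2 of 33 were higher and 13 lower, against 5.19 and 5.79%. Control untreated mural cells held 14140 CPM of fibroblast markers, against 3293 CPM in control imiquimod cells. Within kinds the control count was 1 of 11 higher and 3 lower in Rgs5-only cells. It was 2 of 21 higher and 7 lower in cells meeting both conditions. All genes called either way came to 19.3 and 13.1% in those kinds. Col6a1, a microfibrillar collagen chain, stood at 414.3 CPM in labelled-null imiquimod cells, against 133.8, 97.3 and 117.8 CPM in control imiquimod, labelled-null untreated and control untreated cells, and was 4.26-fold higher with imiquimod in labelled-null skin (3.04 to 6.12). In fibroblasts of the same 2 libraries its ratio was 0.702. Timp1, an inhibitor of matrix metalloproteinases, was 10.8-fold higher in labelled-null imiquimod mural cells (4.12 to 40.2) and 19.2-fold higher in fibroblasts.

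The lower fibrillar collagens of control skin go with 1 library. Col1a1, the main chain of type I collagen, stood at 902.3 CPM in labelled-null imiquimod, 372.8 in control imiquimod, 762.5 in labelled-null untreated and 4253 in control untreated mural cells. Within kinds the control imiquimod and control untreated levels were 80.67 and 5372 CPM in contractile-only cells. They were 727.7 and 3401 CPM in cells meeting both conditions, and 189.2 and 632 CPM in Rgs5-only cells. The control untreated library is also the one whose mural cells held 14140 CPM of fibroblast markers, and 24.2% of its Col1a1 UMIs were in 1 cell. The part of fibroblast transcripts in this was not tested.

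Immediate early and heat shock genes, which tissue dissociation is known to induce, were lower with imiquimod in control skin: 11 of 27 measured were lower and 0 higher. Of all genes 5.79% were called lower in that comparison. In control cells meeting both conditions 15 of 26 genes of this list were lower and 0 higher. In control Rgs5-only cells 3 of 23 were lower and 2 higher. All genes called either way came to 13.1 and 19.3% in those kinds. In labelled-null skin 2 of 28 were higher and 0 lower, near the 6.77% of all genes called higher. Atf3, a stress-response repressor, stood at 1522 CPM in labelled-null imiquimod and 497.1 in control imiquimod cells, against 2224 and 2855 CPM in untreated cells, and the control imiquimod value was the lowest of the 4. Rrad, a small G protein that restrains calcium channels, was 23.7-fold lower with imiquimod in control skin (14.5 to 41.6), at 76.5 CPM against 1810 CPM. Fibroblasts had 4.203 and 6.268 CPM of Rrad in those libraries. The control imiquimod library also had the lowest median depth, whose part was not tested. Of this list 16 of 28 genes were higher in labelled-null than in control imiquimod mural cells, against 4.45% of all genes. The co-chaperone Dnajb1 stood at 1097 CPM in labelled-null imiquimod cells, against 262.9, 278.7 and 200.3 CPM in control imiquimod, labelled-null untreated and control untreated cells. In fibroblasts Dnajb1 had a labelled-null imiquimod to untreated ratio of 0.478.

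Of the growth factor genes, 1 of 23 was higher and 3 lower with imiquimod in labelled-null skin, and 3 of 20 were higher and 5 lower in control skin, against 14 and 11% of all genes called in either direction. Cyr61, a matricellular protein, stood at 1725 CPM in labelled-null imiquimod, 368.0 in control imiquimod, 907.1 in labelled-null untreated and 1219 in control untreated cells. Igfbp5, which binds insulin-like growth factors, was 5.85-fold lower with imiquimod in control skin. Complement genes were higher in part, 5 of 10 with 1 lower in labelled-null skin and 1 of 6 in control skin. Of all genes 6.77 and 5.19% were called higher in those comparisons. C2, a protease of the classical pathway, stood at 202.3 CPM in labelled-null imiquimod and 81.2 CPM in control imiquimod cells, against 28.9 and 17.7 CPM untreated, and was called in both. Cd59a, the inhibitor of the membrane attack complex, was 3.92-fold lower in labelled-null imiquimod skin (2.51 to 6.19).

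Metabolic lists were quiet. Of 23 measured oxidative phosphorylation genes, 0 were called in any of the 4 comparisons, against 14, 11, 9.54 and 6.6% of all genes in the order used here (imiquimod over untreated in labelled-null and control skin, then labelled-null over control with imiquimod and untreated). Hypoxia genes had 1 of 20 lower in labelled-null and 2 of 17 lower in control skin, against 7.21 and 5.79% of all genes. Metal and oxidative stress genes had 6 of 15 higher and 1 lower in labelled-null skin, against 6.77% of all genes called higher and 7.21% lower. Mt2, a metal-binding metallothionein, stood at 4147 CPM in labelled-null imiquimod cells against 964.9 CPM in labelled-null untreated ones. Proliferation genes were mostly unmeasured, with 7 and 4 past 20 UMIs. Of these, 2 in labelled-null and 1 in control skin were lower with imiquimod and 0 higher, against 7.21 and 5.79% of all genes called lower. The labelled-null list median was 0.62 on the log2 scale, against -0.09 over all genes. Within labelled-null kinds 2 of 2 measured were higher in contractile-only, 0 of 2 in both-condition and 1 of 2 in Rgs5-only cells. All genes called either way came to 17.3, 13.2 and 14.3% in those kinds.

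Keratin transcripts also moved in the mural barcodes, but not all in the same direction. Krt14 stood at 2467 CPM in labelled-null imiquimod and 305.9 CPM in labelled-null untreated contractile-only cells. In cells meeting both conditions it stood at 226.6 and 281.6 CPM, and in Rgs5-only cells at 377.2 and 1958 CPM. Krt15, a keratin of basal epidermis and hair follicle, stood at 20.4 CPM in labelled-null imiquimod cells, against 415.8, 473.3 and 598.9 CPM in control imiquimod, labelled-null untreated and control untreated cells. It stood at 967.8 CPM in keratinocytes and 23.4 CPM in fibroblasts of the labelled-null imiquimod library, and at 6988 and 352.1 CPM in those of the labelled-null untreated library. Its direction was thus shared by the 3 cell types.

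Without treatment, labelled-null and control mural cells differed less often: 6.6% of 5074 measured genes were called, 143 higher and 192 lower, or 156 and 133 when each cell was weighted equally. Interstitial matrix genes made up part of the lower ones, at 14 of 35 with 0 higher, against 3.78% of all genes. Dcn, the collagen-binding proteoglycan decorin, stood at 652.0 CPM in labelled-null and 2981 CPM in control untreated mural cells; in fibroblasts it stood at 25230 and 27800 CPM. When barcodes that also carried fibroblast or keratinocyte markers were left out, the log2 ratios turned to 0.66 for Dcn and 0.06 for Col1a1. Clec3b, Col1a2, Lum, Nupr1, Rnase4 and Sparc turned as well, so these differences did not survive that choice. The list was not recounted under it. In Rgs5-only cells (9 labelled-null, 16 control) 5 of 12 matrix genes were higher and 1 lower. In cells meeting both conditions 0 of 22 were higher and 11 lower. All genes called either way came to 15.4 and 6.8% in those kinds.

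Chemokines were lower in 4 of 7 measured and higher in 1, against 3.78% of all genes called lower and 2.82% higher. Il6 was 2.68-fold lower (1.93 to 3.77) and Cxcl1 2.77-fold lower (2.21 to 3.49) in labelled-null than in control untreated mural cells, with 10 and 21 Il6-bearing cells. One contractile-only cell held 50% of the labelled-null untreated Il6 UMIs, and within contractile-only cells the Il6 log2 ratio turned to 1.04. Among contractile genes outside the rule 2 of 27 were lower, Actg2 at 126.2 CPM in labelled-null and 437.9 CPM in control cells (3.47-fold, 2.53 to 4.84) and Cnn1 at 194.6 and 398.6 CPM (2.05-fold, 1.56 to 2.71). Of the same list 1 gene was higher, against 2.82% of all genes. Igfbp2, another binder of insulin-like growth factors, stood at 7.89 CPM in labelled-null and 121.7 CPM in control untreated cells (15.4-fold lower, 5.04 to 76.9), and at 1.77 and 43.0 CPM in labelled-null and control imiquimod cells, so both control libraries stood above both labelled-null ones. The most strongly higher genes were keratinocyte transcripts such as Krt1 (3.50-fold); its ratio in fibroblasts of the same libraries was 3.60. Pericyte genes had 0 of 17 called, ion channels 0 of 12, Notch genes 0 of 9 and mural transcription factors 0 of 18. Of all genes 6.6% were called.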

How the data were processed

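The deposited matrix holds whole-number UMI counts of 27998 genes in 23455 barcodes, made with Cell Ranger 2.1.0 on mm10 per the submitters' processing notes; per the labels, the 4 libraries were combined in it and are told apart by barcode suffix. The counts sum to 160115659 and were used as deposited. Mural barcodes were chosen by the rule given above, their UMIs summed per library and divided by the class total to give CPM. Ratios carry exact conditional binomial 95% intervals, levels exact Poisson and shares exact Clopper-Pearson intervals, all for counting error only. Log2 ratios use a prior count of 0.5, and against 0 UMIs a bound was computed with 3 counts per library. Fibroblasts had Col1a1, Col1a2, Col3a1 and Dcn at 100 or more per 10000 UMIs and keratinocytes Krt5 and Krt14 at 50 or more. Thinning drew 1000 UMIs from each cell. Doublets were marked with Scrublet (expected rate 0.05) and left out only as an alternative. Each group is 1 library, so no condition was tested. The ratio calls were checked on simulated sums of independent counts. That check leaves out the spread of UMIs between cells, so it cannot show how the calls fare under it.

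The members and the 20 gene lists (493 genes, 4 absent from the table) were chosen with earlier results of these data known. Genes named are those of the rule and marker lists, the 10 higher and 10 lower per comparison with the interval bound nearest 1 largest at 50 or more UMIs, 4 per list by the same measure, and measured contractile, pericyte and Notch genes. Nfkbia, Tnfaip3 and other named list members outside it were chosen after their values were seen, and some genes that the rule takes are not reported here. The alternatives were 2 other scalings, thinning, a stricter barcode filter, 2 stricter mural rules, doublets or other cell types left out, either condition of the rule alone, 2 count minima and 2 added after the data were seen. Promoters came from RefSeq (GRCm38.p6). Software was Python 3.11.15, NumPy 2.4.6, SciPy 1.17.1, pandas 2.3.3, Scanpy 1.11.5, Matplotlib 3.10.9, R 4.3.3 and edgeR 4.0.16 (TMM factors only).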

Additional observations from a re-analysis of the deposited data

Results flagged for a closer look

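In 6 genes named for their list, imiquimod and untreated mural cells differed by a called amount in opposite directions in the 2 genotypes; with 1 library per group the difference itself was not tested, and 31 of 4307 genes measured in both comparisons did so. The labelled-null log2 ratio minus the control log2 ratio was 4.63 for Rgs16, which stood at 497.7 CPM in labelled-null imiquimod against 113.1 CPM in labelled-null untreated cells, and at 38.2 CPM in control imiquimod against 229.7 CPM in control untreated cells. It was 5.14 for Tnfaip6, a hyaluronan-binding protein induced by inflammation, which stood at 197.0 against 15.8 CPM in labelled-null and at 19.1 against 64.8 CPM in control cells. It was 5.13 for the eosinophil attractant Ccl11, at 77.2 against 7.89 CPM in labelled-null and 14.3 against 68.7 CPM in control cells. The matrix genes Thbs1, Mmp3 and Col6a3 had differences of 4.11, 4.50 and 2.59. Thbs1, a thrombospondin, stood at 178.3 against 84.1 CPM in labelled-null imiquimod and untreated cells. In control imiquimod and untreated cells Thbs1 stood at 19.1 against 176.7 CPM. Counting intervals of the differences were wide, at 3.53 to 5.73 for Rgs16, 3.33 to 6.95 for Tnfaip6 and 2.93 to 7.35 for Ccl11. They were 2.65 to 5.58 for Thbs1, 2.50 to 6.51 for Mmp3 and 1.14 to 4.03 for Col6a3. Ccl11 at 7.89 and 14.3 CPM, and Tnfaip6 and Thbs1 at 19.1 CPM, rest on few UMIs. Apart from Rgs16, the part of fibroblast transcripts in these genes was not tested. In Rgs5-only cells Rgs16 stood at 903.8 CPM in labelled-null imiquimod and 867.3 CPM in labelled-null untreated skin, so its labelled-null difference was not seen in that kind.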

How the results depend on the processing

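No paired analysis was possible because each group is 1 library and every library has replicate number 1. Interferon genes stayed higher in both genotypes under every alternative, with as few as 17 in labelled-null (Rgs5-only cells) and 6 in control skin (contractile-only cells). Of 160 values that answer a comparison 123 stayed within the limits set for them (counts within 1.5 times, medians and shares within the interval of the value reported), and 6390 of 6812 values of single genes stayed on the same side of the call, called or not.

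Genes called, in the order imiquimod over untreated in labelled-null and control skin, then labelled-null over control with imiquimod and untreated, were 925, 480, 586 and 335. They came to 315, 176, 200 and 60 after thinning, 508, 237, 375 and 118 with at least 50 UMIs, and 288, 148, 255 and 94 in Rgs5-only cells; the first 3 were 580, 252 and 355 in contractile-only cells, and the third 881 with no minimum. Thinning, the higher minimum and the kinds of cell let fewer UMIs or genes in, and no minimum lets more in. Interferon genes higher in labelled-null and control skin came to 19 and 7 after thinning, 17 and 8 in Rgs5-only and 20 and 6 in contractile-only cells, and to 10 in control skin with at least 50 UMIs.

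The contractile median with the rule genes in it (values over all members -0.27, -0.24, -0.51 and -0.32) was 0.07, -0.66, 0.01 and -0.86 in Rgs5-only and -0.64, 0.63, -1.04 and 0.02 in contractile-only cells. With at least 500 genes and at most 5% mitochondrial UMIs it was -0.76 in the second and 0.13 in the third comparison, and in the third -0.24 with cells weighted equally and -0.22 after thinning. The mural share of control untreated skin was 1.24% under that filter, and that of labelled-null imiquimod skin 3.44% with at least 3 Rgs5 or Myh11 UMIs.

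Single genes turned as follows on the log2 scale. With that filter Igfbp3 was 0.85 in labelled-null skin and Rgs2 -0.32 in control skin with imiquimod; after thinning Synpo2 was 0.11 between imiquimod libraries. Between untreated libraries, without doublets Nupr1 was 0.56 and Sparc 0.09, and without fibroblast or keratinocyte barcodes Clec3b was 0.73, Col1a1 0.06, Col1a2 0.36, Dcn 0.66, Lum 0.47, Nupr1 0.93, Rnase4 1.25 and Sparc 0.09. In Rgs5-only cells Klf2 was 0.09 with imiquimod in labelled-null skin, Il1b 2.29 between imiquimod libraries, and Col1a1 1.29, Col1a2 1.84, Dcn 1.95, Krtdap -1.05, Rgs16 0.36 and Sparc 0.25 between untreated ones. In contractile-only cells Ccl8 was 1.05 between imiquimod libraries, and Il6 1.04, Krt1 -0.56, Krt17 -0.98 and Krtdap -0.20 between untreated ones. The cause was not tested.

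Both alternatives added after seeing the data left directions as they were. With each gene's highest cell left out, 19 single-gene values lost their call, 10 gained one and 479 stayed as they were, called or not; Il6 was 3.9 between imiquimod libraries, and Rgs2 lost its call in control skin (0.25), as did Ccl8 between imiquimod libraries (-0.01). At this depth a gene under 20 UMIs cannot be compared, and the 209220 control imiquimod UMIs limit both comparisons that use that library.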

Other observations

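In control imiquimod skin 1 cell held 95.7% of the 46 UMIs of G0s2, an inhibitor of fat breakdown. Apod, a lipid-binding apolipoprotein, stood at 427.6 CPM in labelled-null imiquimod and 425.4 CPM in control imiquimod mural cells, against 21.0 CPM in labelled-null untreated and 15.7 CPM in control untreated cells. In control skin it was 27.1-fold higher with imiquimod, and 8.45-fold higher in fibroblasts of the same libraries.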
